A study of Mus musculus with 4 samples.

Results

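Placental and decidual marker genes were followed in RNA from mouse embryos without nucleoredoxin (Nxn-null, written NRX -/- in the labels) and from wild-type embryos (NRX +/+), as a check of the tissue that entered each RNA. The set held 7 genes, namely Prl8a2, Prl3d1, Prl3d2, Prl3b1, Tpbpa, Ascl2 and Gcm1, each read by 1 of the 41174 gene probes of the array. They were picked by name for where they are known to be expressed, with their Nxn-null over wild-type ratios and their levels on these arrays already known. Their ratios are therefore given as a description, with no test. The array design lists Prl8a2 as Dtprp, Prl3d1 as Csh1, Prl3d2 as Plib and Prl3b1 as Csh2.

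Nucleoredoxin is a thioredoxin-related protein, and the series was set up to ask about Wnt/β-catenin signalling in its absence. Nxn-null and wild-type embryos were C57BL/6J, untreated, and taken at mid-gestation, on embryonic days E9.5 and E11.5. On each of 4 two-colour arrays an Nxn-null sample was set against a stage-matched wild-type sample, 2 arrays a stage with exchanged dyes, so that Nxn-null was read in Cy5 on replicate 1 and in Cy3 on replicate 2. How many embryos each sample pooled, whether membranes were removed, how the allele was made and whether replicates are separate extracts are not given in the sources used here, so p-values measure only the spread between these arrays, which may be technical.

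At E9.5, between 51.5% and 69.7% of gene probes were well above background in the Nxn-null channels and between 58.3% and 65.8% in the wild-type channels. At E11.5 these shares were 60.1% to 63.8% in the Nxn-null channels and 48.2% to 70.3% in the wild-type channels, and on every array the Cy5 channel had the higher share. Both Nxn probes were lower in the Nxn-null channel on all 4 arrays, with log2 ratios between -0.77 and -1.42, which goes with the labels but leaves signal in the Nxn-null RNA. All 8 genes on a list of embryo body markers were well above background in all 8 channels. Across the 17161 genes kept for testing, the ratios of the arrays of a stage correlated with r = 0.48 (E9.5) and r = 0.26 (E11.5).

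The mouse placenta is built by trophoblast of the embryo and lies against the decidua, the lining of the uterus transformed in pregnancy, so neither belongs to the embryo body. Trophoblast giant cells border the decidua and secrete placental lactogens, spongiotrophoblast lies beneath them, and the labyrinth, where syncytiotrophoblast forms, exchanges nutrients with maternal blood. The prolactin family of the mouse is a large cluster of related hormone genes on chromosome 13, most of them active only in placenta or decidua, and in the mouse the early lactogen Prl3d1 gives way to the later Prl3b1 around mid-gestation.

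The lactogen genes lie close together: in the RefSeq gene order Prl3d1, Prl3d2 and Prl3d3 are direct neighbours within the prolactin family, followed by Prl3c1 and Prl3b1, with Prl8a2 further along the same chromosome. Promoter windows of 300 bases from RefSeq (GRCm38.p6) were found for 6 of the 7 genes. The 150 bases before the annotated start are shown for the 3 lactogens, because Prl3d1 and Prl3d2 moved alike and Prl3b1, from the same cluster, had a ratio near 0. All are on the plus strand of chromosome 13, at chr13:27094039-27094188 for Prl3d1, chr13:27121545-27121694 for Prl3d2 and chr13:27242280-27242429 for Prl3b1. Capitals mark exact matches, on either strand, to 3 words: TGANTCA, the core bound by AP-1 factors; TGATAA, of the kind bound by GATA factors and present here on the opposite strand; and TATATA.
Prl3d1: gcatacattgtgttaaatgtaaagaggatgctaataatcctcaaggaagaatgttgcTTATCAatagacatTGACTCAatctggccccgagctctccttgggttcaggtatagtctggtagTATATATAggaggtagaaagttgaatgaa
Prl3d2: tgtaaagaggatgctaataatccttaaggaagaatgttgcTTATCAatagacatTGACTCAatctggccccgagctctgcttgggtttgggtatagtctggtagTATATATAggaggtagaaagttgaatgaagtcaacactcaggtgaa
Prl3b1: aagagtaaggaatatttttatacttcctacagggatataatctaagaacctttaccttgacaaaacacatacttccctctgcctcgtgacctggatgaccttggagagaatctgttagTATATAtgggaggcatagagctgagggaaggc
The windows of Prl3d1 and Prl3d2 were identical at 277 of 283 aligned bases (97.9%), and those of Prl3d2 and Prl3d3 at 295 of 296 (99.7%). Prl3b1 aligned with Prl3d2 over 117 bases only, at 70.9% identity. TGANTCA and TGATAA each occurred 1 time in the Prl3d1 and Prl3d2 windows, without overlap, while TATATA occurred as an overlapping pair in each of these and 1 time in Prl3b1. Over all 32851 RefSeq windows of this length, 7.81% held TGANTCA, 9.05% TGATAA and 5.67% TATATA. Among the 22 prolactin family genes with a window, 9 held TGANTCA, 4 held TGATAA and 20 held TATATA. Prl3d1, Prl3d2 and Prl3d3, which has no probe of its own, are near-identical copies, so the probes of Prl3d1 and Prl3d2 may read more than 1 of these genes, which was not tested.

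At E9.5, 3 of the 7 genes were at least 2-fold higher in Nxn-null than in wild-type RNA: Prl8a2, Prl3d2 and Prl3d1. Of all 17161 tested genes, 0.0874% (15 genes) were at least 2-fold higher, and 0.752% at least 2-fold lower. The other 4 genes had mean log2 ratios from 0.15 to 0.30, and of these Tpbpa and Gcm1 were well above background in no channel. Counted over every gene with a probe, dim ones included, 0.0544% were at least 2-fold higher and 0.468% at least 2-fold lower at E9.5. At E11.5 none of the 7 was at least 2-fold apart, against a background of 0.0524% higher and 0.152% lower. By the Feature Extraction log ratio, however, Prl8a2 was at -2.95 there, past 2-fold lower, from channels that were mostly not well above background. In whole-embryo RNA, more cells of a type and more RNA per cell cannot be told apart. Well above background in all 4 channels were 4 of the 7 genes at E9.5 and 2 at E11.5, beside 52.4% and 50.1% of all genes with a probe. The median of the 7 E9.5 ratios, 0.30, is that of Gcm1, a gene above background in no channel, and the median at E11.5 was 0.02. Over all genes with a probe the medians were 0.0028 and 0.0046.

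**Figure D1:**
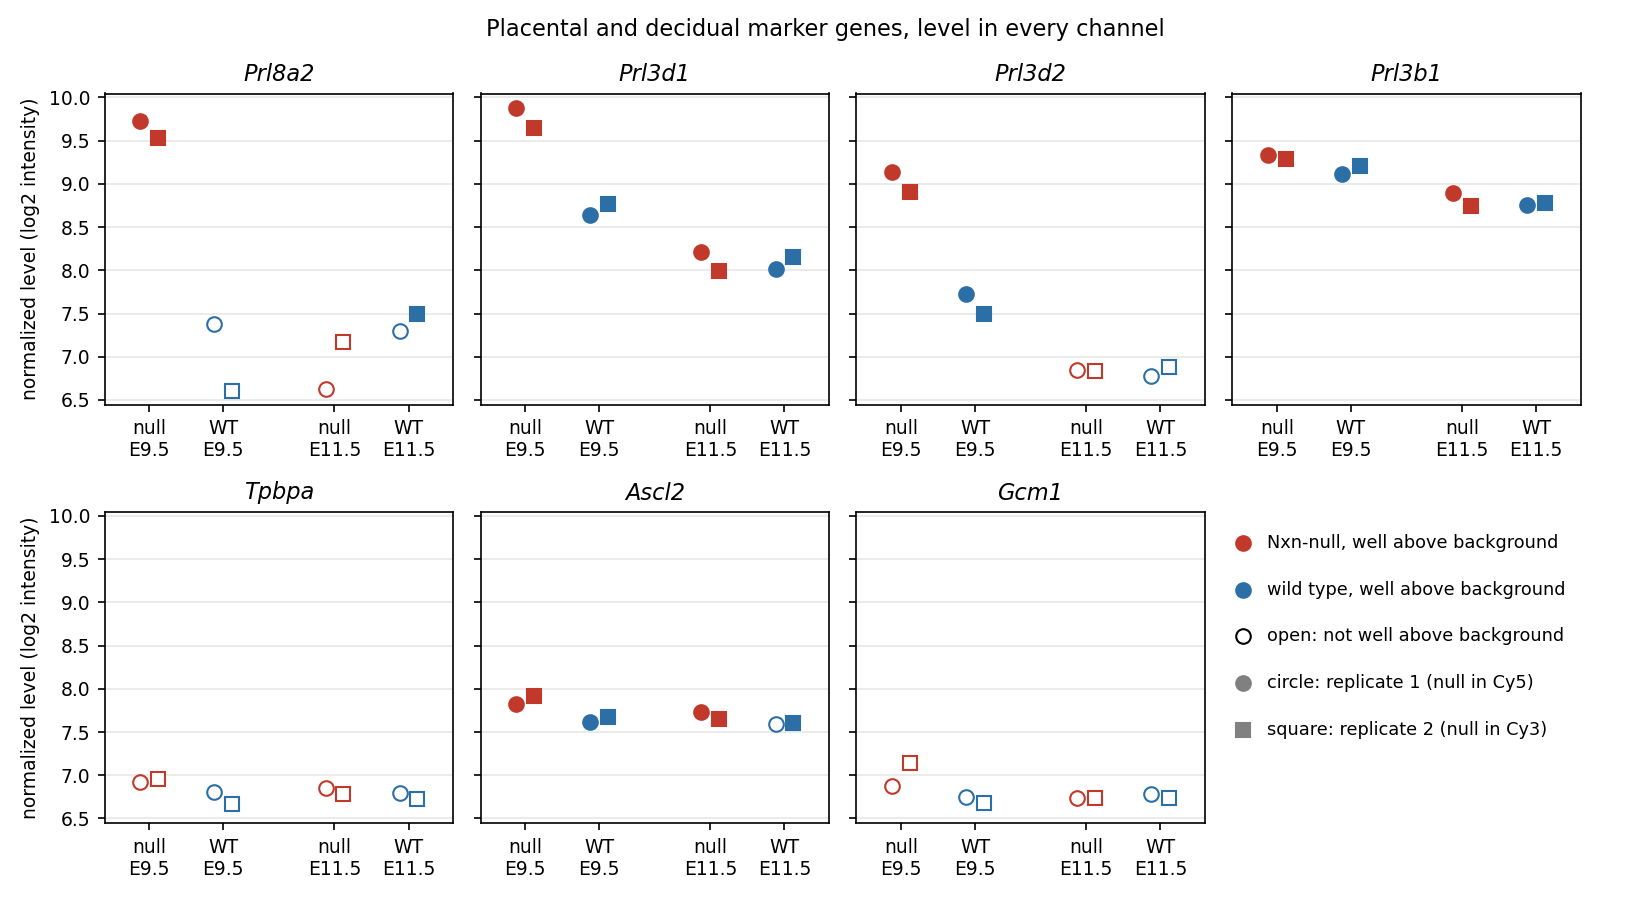
Normalized level (log2 intensity, y axis) of each of the 7 genes in every channel, Nxn-null (red) left of wild type (blue) at E9.5 and E11.5. Circles are replicate 1 and squares replicate 2, and open symbols were not well above background. The Nxn-null channels at E9.5 stand above all other channels for all 7 genes, clearly for Prl8a2, Prl3d1 and Prl3d2 and narrowly for the rest. Tpbpa and Gcm1 are open throughout.

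Prl8a2 encodes decidual prolactin-related protein, a hormone named for its production by the decidua. Its log2 level at E9.5 was 9.73 and 9.53 in the Nxn-null channels of replicates 1 and 2, against 7.38 and 6.61 in the wild-type channels. The Nxn-null channels were high and the wild-type channels were not well above background on either array. Before normalization, the signal less local background was 1016 (Cy5) and 480 (Cy3) intensity units in the Nxn-null channels, against 35.8 (Cy3) and 49.7 (Cy5) in the wild-type channels. Nxn-null was thus higher under both dye assignments. The log2 ratios were 2.35 and 2.92 (mean 2.64 ± 0.40, SD, n = 2 arrays), which ranked 1 among the tested genes. Prl8a2 passed the filter through its Nxn-null channels at E9.5 alone, so it had to be high there. Since the wild-type level is only a bound, Prl8a2 was at least 5.59-fold higher in Nxn-null as a mean over both arrays. This bounds the mean and not each array, and replicate 1 alone lay lower. Bounds of this kind set the bright group's mean against, per array, the higher of the dim probe's own value and the lowest signal among probes well above background.

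Prl8a2 at E11.5 did not keep this order. Its level was 6.62 and 7.17 in the Nxn-null channels, neither well above background, and 7.30 and 7.49 in the wild-type channels, of which replicate 2 alone passed. The groups did not overlap, and the wild-type channel was the higher on both arrays. The log2 ratios were -0.68 and -0.33 (mean -0.50 ± 0.25, SD, n = 2). Since wild-type replicate 1 was not well above background either, no bound is given. The ratio was thus above 0 on both E9.5 arrays and below 0 on both E11.5 arrays. The difference between stages was not tested, and each side of it rests on channels not well above background.

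Prl3d1, also called placental lactogen I, is secreted by trophoblast giant cells and acts on the maternal prolactin receptor. Its level at E9.5 was 9.88 and 9.65 in the Nxn-null channels and 8.64 and 8.77 in the wild-type channels, all well above background. The log2 ratios were 1.24 and 0.88 (mean 1.06 ± 0.26, SD, n = 2), or 2.08-fold, with rank 14. Every Nxn-null value exceeded every wild-type value, although replicate 2 by itself did not reach 2-fold. At E11.5 the levels were 8.21 and 7.997 in Nxn-null and 8.02 and 8.15 in wild type, and the groups overlapped. The ratio there was 0.20 on replicate 1 and -0.15 on replicate 2 (mean 0.02 ± 0.25, SD, n = 2), a spread wider than the mean.

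Prl3d2, a near-identical copy of Prl3d1 that also encodes a placental lactogen I, had levels of 9.13 and 8.90 in Nxn-null and 7.73 and 7.49 in wild type at E9.5. Both log2 ratios were 1.41 (SD 0.0027, n = 2), or 2.65-fold, with rank 6. The genotypes stood apart by the same amount on both arrays. At E11.5 its levels were 6.85 and 6.83 in Nxn-null and 6.77 and 6.88 in wild type, and none was well above background, so no ratio is given for that stage.

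Prl3b1, placental lactogen II, is the lactogen of trophoblast in the later placenta. It read 9.33 and 9.29 in Nxn-null and 9.11 and 9.21 in wild type at E9.5, all well above background. Its log2 ratios were 0.22 and 0.08 (mean 0.15 ± 0.09, SD, n = 2), so the Nxn-null values lay above the wild-type values by a small amount, with rank 2218. At E11.5 the levels were 8.90 and 8.74 in Nxn-null and 8.76 and 8.78 in wild type. These overlapped, and the mean ratio was 0.05 ± 0.12 (SD, n = 2). The mean at E11.5 was smaller than the SD of its arrays.

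Ascl2, a basic helix-loop-helix transcription factor required for spongiotrophoblast, had levels of 7.82 and 7.91 in Nxn-null and 7.62 and 7.67 in wild type at E9.5. The ratios were 0.21 and 0.24 (mean 0.22 ± 0.02, SD, n = 2), with rank 988, and the groups did not overlap. Its E11.5 levels were 7.74 and 7.65 in Nxn-null and 7.59 and 7.60 in wild type, of which wild-type replicate 1 was not well above background, and the mean ratio was 0.10 ± 0.07 (SD, n = 2). Tpbpa, the marker of spongiotrophoblast and of the ectoplacental cone from which it arises, was well above background in none of the 8 channels. Its levels at E9.5 were 6.92 and 6.95 in Nxn-null and 6.81 and 6.67 in wild type, and at E11.5 they were 6.85 and 6.78 in Nxn-null and 6.79 and 6.72 in wild type. Gcm1, the transcription factor of labyrinth syncytiotrophoblast, likewise passed in no channel, with levels of 6.88 and 7.14 in Nxn-null and 6.75 and 6.67 in wild type at E9.5, and between 6.73 and 6.79 in all channels at E11.5. Ratios of Tpbpa and Gcm1 therefore compare signals that cannot be told from background.

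The change between stages, E11.5 minus E9.5, is likewise given as a description, since the levels were known when the genes were picked. A limma fit over all genes, with the genotypes as the replicates (n = 2), called 21.0% of them higher and 21.1% lower at E11.5, and nothing is read from it for the marker genes. Prl3d1 differed by -1.66 in Nxn-null and by -0.62 in wild type, and its E11.5 levels lay below its E9.5 levels in both genotypes. Prl3d2 differed by -2.18 in Nxn-null and by -0.78 in wild type. It passed the filter through its E9.5 channels alone, so it had to be lower at E11.5, by at least 4.34-fold in Nxn-null and at least 1.72-fold in wild type. Prl3b1 differed by -0.49 in Nxn-null and by -0.39 in wild type.

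For Prl8a2 the difference was -2.74 in Nxn-null, at least 5.92-fold lower at E11.5, and 0.40 in wild type. Its wild-type channels were well above background on no E9.5 array and on 1 E11.5 array, so no bound is given for wild type. Ascl2 differed by -0.18 in Nxn-null and by -0.05 in wild type. All of these differences between stages are taken across arrays in 1 slide and scan session, with 2 arrays a stage, so stage and array cannot be told apart.

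Over the 8 channels, Prl3d1 and Prl3d2 followed each other most closely among the members (Pearson r = 0.99), and Prl3d1 and Prl3b1 had r = 0.93. Prl8a2 had r = 0.89 with Prl3d2, 0.85 with Prl3d1 and 0.63 with Prl3b1. Among 14341 genes with a current symbol, those most like Prl8a2 were Wdfy1 (r = 0.98), Aoc1 (0.97), Prl4a1 (0.96), Esco1 (0.95) and Ctla2b (0.95). Those most like Prl3d1 were Prl3d2 (r = 0.99), Erv3 (0.99), Adamts4 (0.99), Glb1l (0.99) and Rhox9 (0.98). These are descriptions: the 8 points are pairs of channels on 4 arrays and are not independent, and with few points many genes reach a high r.

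The other prolactin family genes bear on the same question, although their list too was chosen with earlier results of these arrays known. Of 23 listed genes, 19 had a probe, 11 of these were well above background in no channel at E9.5, and 4 passed the filter for testing. All 4 were higher in Nxn-null at E9.5 beyond array spread (limma with a dye term), where 9.88% of all tested genes were higher and 14.8% lower. Prl4a1 passed the filter through its Nxn-null channels alone, so it had to be high there, and the count is no support for the family as a whole. The median of all 19 was 0.07, beside 0.0028 over all genes with a probe. At E11.5 none of the 4 differed beyond array spread (background 3.67% higher and 5.64% lower), and 17 of the 19 were well above background in no channel. Among the 4, the E11.5 probes of Prl4a1, Prl2c3 and Prl7a1 were above background in neither genotype and that of Prl2c5 on 1 wild-type array alone. Their E11.5 ratios therefore carry little signal, and nothing is read from their difference between stages, a comparison that called 5.23% of all tested genes higher at E9.5 and 8.32% lower. The 15 genes at least 2-fold higher at E9.5 include 4 of this family, 3 of which are the marker genes picked with their ratios known.

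**Figure D2:**
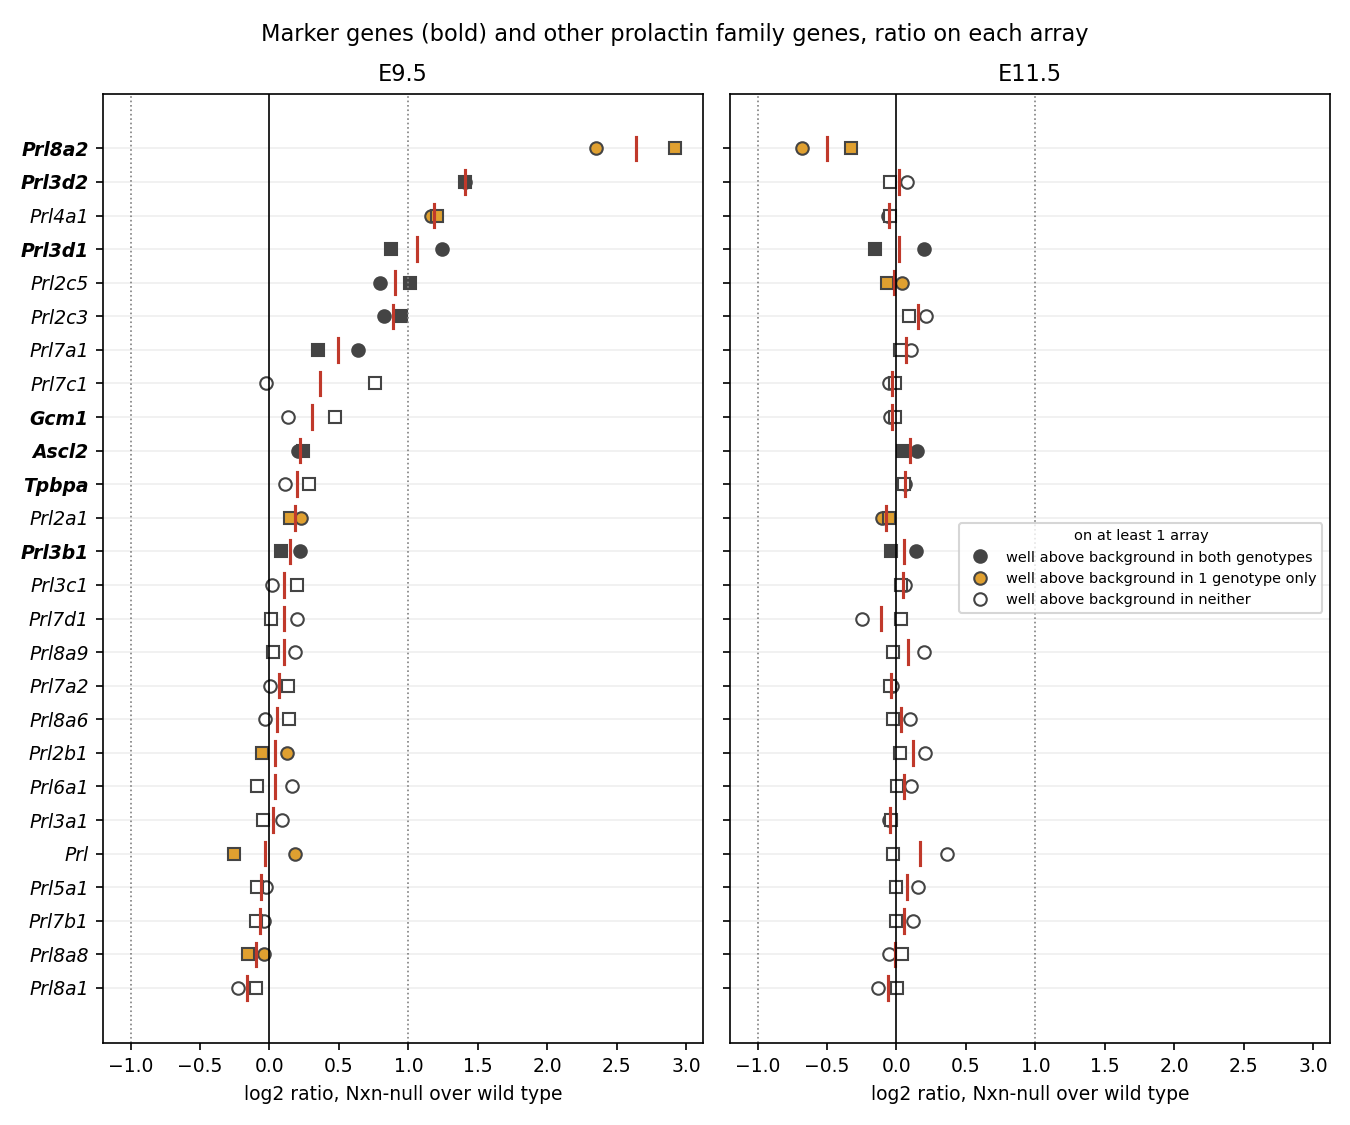
Log2 ratio of Nxn-null over wild type (x axis) on each array for the 7 marker genes (bold) and 19 other prolactin family genes, at E9.5 and E11.5. Circles are replicate 1, squares replicate 2, red bars the mean of both; fill shows in how many genotypes the probe was well above background on at least 1 array, and dotted lines mark 2-fold. Prl8a2, Prl3d2, Prl4a1, Prl3d1, Prl2c5, Prl2c3 and Prl7a1 lie right of the rest at E9.5, and all but Prl8a2 lie near 0 at E11.5.

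Prl4a1 (prolactin-like protein A, a placental hormone known to act on uterine natural killer cells) had ratios of 1.17 and 1.20 at E9.5 (mean 1.18 ± 0.03, SD, n = 2). Wild type was not well above background on either array, which makes this at least 2.15-fold higher in Nxn-null. Prl2c5 and Prl2c3 encode proliferins, angiogenic hormones of giant cells from a group of near-identical genes whose probes may cross-read. Prl2c5 had ratios of 0.80 and 1.01 (mean 0.90, adjusted p = 2.13e-09 by limma, and 0.0119 without the dye term). Prl2c3 had 0.83 and 0.95 (mean 0.89, adjusted p = 1.80e-09 by limma, and 0.0103 without the dye term). Prl7a1, prolactin-like protein E of giant cells, had 0.64 and 0.35 (mean 0.49, limma adjusted p = 6.43e-06, but 0.0882 without the dye term). The summed level of all 19 genes, which includes the offset of 50 in each, was 3596 and 3525 intensity units in the Nxn-null channels at E9.5, against 2735 and 2687 in wild type. This sum includes the 4 genes above, and 11 of the 19 were well above background in no E9.5 channel. At E11.5 the summed level was 2180 and 2160 in Nxn-null, against 2105 and 2168 in wild type, where the groups overlapped.

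Of 14 listed trophoblast transcription factors, 12 were tested, and 1 was higher and 2 were lower at E9.5 beyond array spread. These are shares near those of all tested genes (9.88% higher and 14.8% lower), and the list's median was 0.02. Ets2 (-0.27, limma adjusted p = 0.00284) and Hand1 (-0.22, limma adjusted p = 0.0119), which drive trophoblast and giant cell formation, fell in Nxn-null. Which tissue gave the signal of the listed factors was not tested. The higher gene was Gata2 (0.17, limma adjusted p = 0.0469), a regulator of lactogen genes in giant cells, whose arrays differed in sign, at 0.42 and -0.08. None of these calls held without the dye term, with adjusted p from 0.227 to 0.777 by limma; at E9.5 that fit called 0.361% of all genes higher and 2.31% lower, while its shares at E11.5 were 0.0524% and 0.111%. At E11.5 none of the 12 differed beyond array spread.

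Among 30 listed placental proteases and surface proteins, 27 had a probe, 15 were well above background in no channel at E9.5 and 8 were tested. The placental cathepsins, pregnancy-specific glycoproteins and Tpbpb, a spongiotrophoblast gene related to Tpbpa, were all outside the tested genes. Rhox9, a homeobox gene, rose at E9.5 (0.99, limma adjusted p = 2.93e-10). Rhox6 was also called higher (0.23, limma adjusted p = 0.0361, and 0.866 without the dye term), but its arrays differed in sign, at 0.59 and -0.14. Phlda2, an imprinted gene that restrains placental growth, fell by 2.20 (limma adjusted p = 3.20e-16), and Plac1 by 0.51 (limma adjusted p = 2.91e-06). At E9.5, 2 of the 8 were thus higher and 2 lower (9.88% and 14.8% of all tested genes), with a median of -0.0042 over all 27. Without the dye term, 1 was called higher and 2 lower at E9.5. At E11.5, 3 of the 8 were higher (3.67% of all tested genes), and without the dye term none was. The 3 were Rhox6 (0.76), Rhox9 (0.30) and, named after its values were seen, Flt1 (0.29), a receptor of vascular endothelial growth factor. Among dimmer Flt1 probes well above background in every E11.5 channel, 1 had a mean of 0.28 and another of -0.03.

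Of 12 listed genes of decidua and uterus, 9 were tested, and at E9.5 1 was higher and 4 were lower beyond array spread, where 9.88% of all tested genes were higher and 14.8% lower. Without the dye term 2 of the 4 remained called, and the median of the 12 was -0.04. Those that fell were Hoxa10 (-0.97, limma adjusted p = 2.41e-10) and Hoxa11 (-0.95, limma adjusted p = 1.23e-09), which the embryo's trunk and limbs also express, Dio3 (-0.55, limma adjusted p = 8.74e-07, and 0.151 without the dye term) and Cryab (-0.53, limma adjusted p = 2.36e-06, and 0.0616 without the dye term). The higher gene, named after its values were seen, was Htra3, a serine protease of decidua, at 0.44 (limma adjusted p = 1.63e-05, and 0.0917 without the dye term). A dimmer Htra3 probe, well above background in every E9.5 channel, had a mean of only 0.12. The steroid receptor genes Pgr and Esr1 and the steroidogenic Cyp11a1 were well above background in no channel of either stage. At E11.5 none of the 9 differed beyond array spread. The list's summed level at E9.5, which includes Hoxa10 and Hoxa11, was 5210 and 5043 in Nxn-null, against 6375 and 6689 in wild type. At E11.5 the sums were 7392 and 7131 in Nxn-null, against 6979 and 7300 in wild type, where the groups overlapped.

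None of the 11 markers of decidual natural killer cells passed the filter for testing. In Nxn-null, 5 were well above background on 1 E9.5 array and none on both, against 2 on 1 array in wild type. Their ratios compare signals at or near background and are not read. Of these genes, Ncr1, Klrg1, Gzma, Gzmb, Gzme and Gzmg were well above background in no channel of either stage. The summed level was 1552 and 1503 in Nxn-null, against 1421 and 1274 in wild type. Whether decidual cells contributed to the Prl8a2 signal was not tested.

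Yolk sac genes were lower in Nxn-null at E9.5. All 16 visceral yolk sac genes were lower in Nxn-null beyond array spread, 13 of them at least 2-fold, with a median of -2.95; of all tested genes, 14.8% were lower beyond array spread and 0.752% at least 2-fold lower. Without the dye term, 15 of the 16 were called lower. In Nxn-null 11 of the 16 were well above background on both arrays, against all 16 in wild type. The 16 included S100g (-4.73), which was well above background on 1 of 2 arrays in Nxn-null and so is measured there only in part, Cubn (-4.25, limma adjusted p = 3.37e-19), Apob (-3.40, limma adjusted p = 9.50e-19) and Afp (-3.37, limma adjusted p = 1.04e-18), genes of calcium, vitamin, lipid and plasma protein handling. Their summed level was 20991 and 17431 in Nxn-null, against 173160 and 175430 in wild type. At E11.5 the sums were 80748 and 81310 in Nxn-null, against 80950 and 89718 in wild type, and 4 of 16 were lower (5.64% of all tested genes), none of them without the dye term. The 12 parietal endoderm genes had a median of -0.03 at E9.5, with 2 higher and 3 lower beyond array spread (9.88% and 14.8% of all tested genes) and none without the dye term. All 12 were well above background in every channel of both stages. Whether that signal came from parietal endoderm was not tested, so the median is not read for that tissue. At E9.5, where 3 of the marker genes were higher in Nxn-null, the listed yolk sac genes were thus lower. Which tissue their RNA came from, and the part of membranes in the marker ratios, were not tested.

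**Figure D3:**
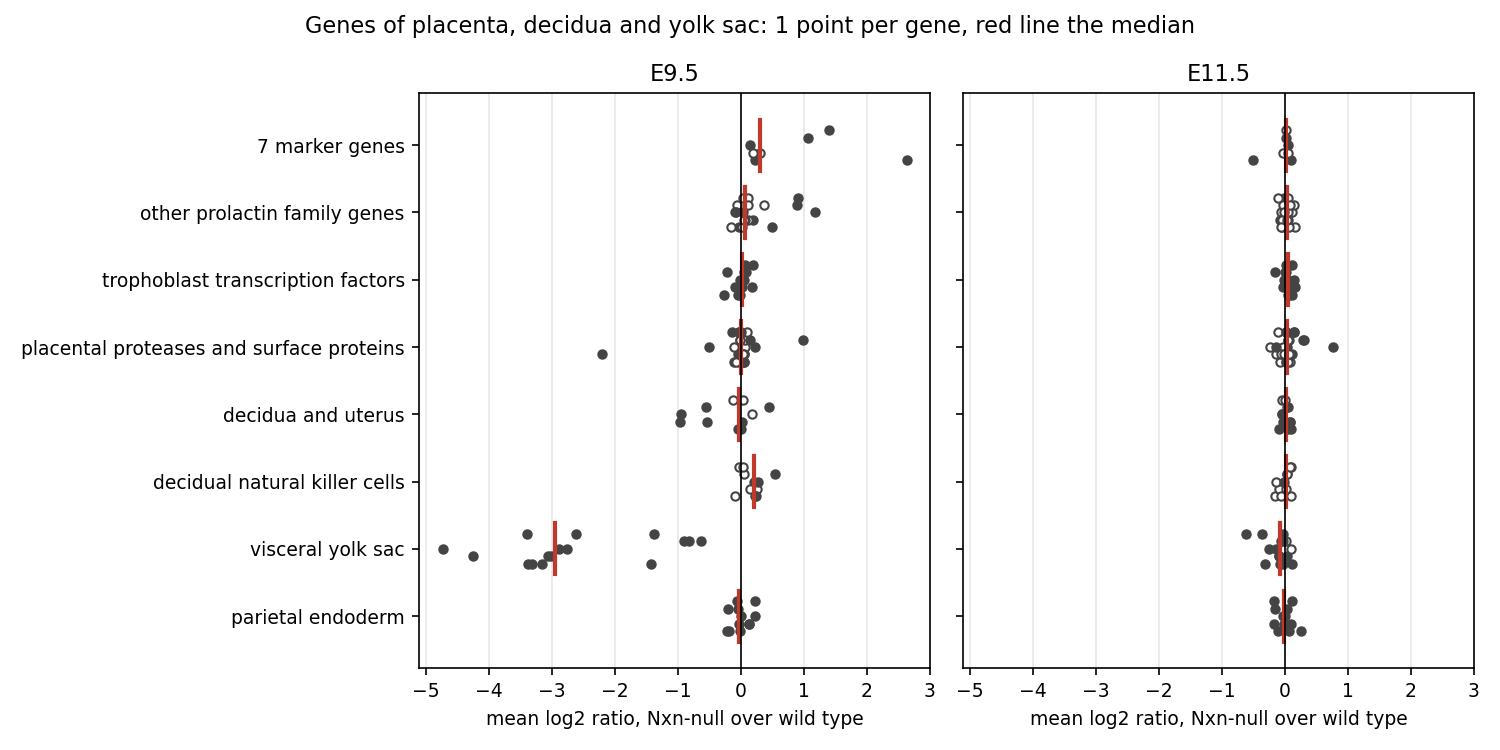
Mean log2 ratio of Nxn-null over wild type (x axis), 1 point per gene and its brightest probe, for each gene list at E9.5 and E11.5; red lines are list medians and open points were well above background in neither genotype on any array of the stage. At E9.5 the visceral yolk sac genes lie left of 0 with a median of -2.95. The 7 marker genes lie right of 0, with Tpbpa and Gcm1 open, and at E11.5 all list medians lie near 0.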

How the data were processed

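RNA of Nxn-null and wild-type mouse embryos was measured on 4 two-colour arrays. Per the file headers, the deposited scanner files hold spot intensity per channel on a linear scale with local background, and a log10 ratio of red over green, written by Agilent Feature Extraction 9.1.3.1 (the submitters' processing notes name 9.5.3.1). The deposited value table was set against them: 99.995% to 100% of its values on 40929 probes equalled, within 1e-04, the log10 ratio of the processed signals turned to Nxn-null over wild type. Its column medians were -0.0136 and 0.0408 for E9.5, then -0.0347 and 0.0210 for E11.5, so no further centring was seen.

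Mean intensities were corrected by normexp (offset 50) and normalized by loess within arrays, then by Aquantile for single-channel log2 levels, in limma 3.58.1 under R 4.3.3 (data.table package, release 1.17.8). Figures used matplotlib 3.10.9 under Python 3.11.15, and promoter windows were aligned locally with Biopython 1.88. Probes whose spots were all marked as outliers on an array (293) were left out. A probe was kept if, at either stage, the same genotype passed the background call on both arrays (24994 of 41174), and the brightest stood for each gene (17161 genes). Names came from RefSeq (GRCm38.p6): 22951 probes matched by accession, 6659 by current and 3109 by older symbol, and 8455 kept the files' name. Between 0 and 7 spots an array were saturated among 43379 gene spots; the number of arrays limits the precision.

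Array spread was tested by limma over all genes on the 4 arrays with dye orientation, which is the replicate number, as a block (1 residual degree of freedom, prior 18.4), at an adjusted p (Benjamini-Hochberg) of 0.05. The labels give each array's dyes. Deviations from the stage means correlated between stages with r = 0.74, so the block holds what arrays of the same replicate number share. Whether that comes from the dyes was not tested. The stage fit over all genes had 1 residual degree of freedom and a prior of 2.85; for the members it is given without a test, since their levels were known, which departs from the planned test. Scripts were tested on simulated data. The members, lists and tests were chosen with earlier results of these data known. Named were all members, from each list up to 4 genes beyond array spread at E9.5 and 2 at E11.5 by size, and the 5 genes most correlated with Prl8a2 and with Prl3d1. Probe sequences were not used here.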

Additional observations from a re-analysis of the deposited data

Results flagged for a closer look

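Ratios at E9.5 minus those at E11.5 (log2, Nxn-null over wild type) are given here for a selection of genes where they differed between the stages. The lists hold other genes that differed and are not named here. Prl8a2 was above 0 on both E9.5 arrays and below 0 on both E11.5 arrays, a difference of 3.14 that was not tested and that rests on channels not well above background at each stage. Gcm1 had the same pattern with a difference of 0.33, also not tested, from signals not well above background in any channel. The remaining genes had a difference beyond array spread by limma, as did 5.23% of all tested genes upwards and 8.32% downwards.

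Of prolactin family genes, Prl4a1 differed by 1.24, Prl2c5 by 0.92, Prl2c3 by 0.74 and Prl7a1 by 0.43. At E11.5 the probes of Prl4a1, Prl2c3 and Prl7a1 were above background in neither genotype, and that of Prl2c5 on 1 wild-type array, so these differences set measured ratios against ratios of signals near background. Of the other placental genes, Rhox9 differed by 0.69 and Rhox6 by -0.53, Phlda2 by -2.32, Plac1 by -0.37 and Ets2 by -0.33, with adjusted p from 9.84e-14 to 0.0157 by limma. Of the decidual list, Hoxa10 differed by -0.94, Hoxa11 by -0.91, Dio3 by -0.58 and Cryab by -0.61, while Htra3 differed in the other direction, by 0.39. Of yolk sac genes, S100g differed by -4.83 (above background in neither genotype at E11.5), Cubn by -4.17, Apob by -2.79, Afp by -3.30 and Trf by -1.02, and of parietal endoderm genes Stra6 by -0.45.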

How the results depend on the processing

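Over 11 settings, the reported one included, the E9.5 log2 ratio ran from 2.35 to 5.06 for Prl8a2, from 0.88 to 1.37 for Prl3d1 and from 1.41 to 2.44 for Prl3d2. All 3 stayed at least 2-fold higher in each setting that gave them a value, except Prl3d1 at 0.88 without E9.5 replicate 1. Where both genotypes had to be well above background, Prl8a2 was not kept and 2 of the marker genes counted as at least 2-fold higher. The highest values come from the Feature Extraction log ratio and the deposited table. At E11.5 Prl8a2 ran from -2.95 to -0.33. The stage difference of Ascl2 turned to 0.22 without normalization between arrays, where 5815 genes were higher at E11.5; the cause was not tested. Weak signal limits Tpbpa, Gcm1 and, at E11.5, Prl8a2 and Prl3d2, and 2 arrays a stage limit all counts.

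Counts over all genes moved most. At least 2-fold higher at E9.5 were 31 genes with a normexp offset of 10, and 130 (with 408 lower) by the Feature Extraction log ratio. At E11.5 they were 52 with offset 10, 71 (with 85 lower) by the Feature Extraction log ratio, 15 with median centring and 5 with the mean of all probes. Beyond array spread at E9.5 were 442 higher and 1089 lower by the Feature Extraction log ratio, and 155 and 524 with median centring. At E11.5 these were 76 and 92, and 119 and 101, and without a filter on dim probes 644 were lower. Without the replicate block (the dye term), 62 were higher and 397 lower at E9.5, against 1696 and 2536 with it, and 9 and 19 at E11.5, against 629 and 968; without it no E11.5 call on the gene lists remained. Leaving out 1 array also drops the dye term, and gave 56 to 64 higher and 206 to 411 lower at E9.5, and 4 to 44 higher and 12 to 100 lower at E11.5. At least 2-fold counts then ran from 15 to 44 higher and 116 to 213 lower at E9.5, and from 6 to 67 higher and 25 to 42 lower at E11.5. Stage calls ran from 2579 to 3520 higher and 2265 to 3383 lower at E11.5.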
